A study of Mus musculus with 6 samples.

Results

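The genes described here are 37 nuclear hormone receptor genes, taken as a named list and followed between 2 stages of red cell formation in the mouse fetal liver. A member was measured where a probe set of the array carried its symbol and no other, and the brightest such probe set, by its mean over all arrays, stood for the gene. In all, 36 of the 37 had one, among 18193 genes so represented on the array, and Nr1h2 was not analysed here. Of the 36, 24 were bright enough to enter the test of 11959 genes, and the other 12 were too dim.

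The cells came from whole fetal livers of Balb/C embryos and were sorted by flow cytometry, on CD71, Ter119 and antibodies to other lineages, into an early subset called S1 and a later subset called S3. There were 3 arrays of each subset, from sorts made on 3 separate days, each sort giving its own RNA. The labels give no genotype, mutation or treatment beyond the strain. They disagree on age: the stage label reads day 12.5 for S1 and day 13.5 for S3, while the source label reads day 13.5 for all 6, so subset and age cannot be told apart if the stage label is the right one. The series was made for work on the loss of DNA methylation during erythropoiesis.

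Nuclear receptors are transcription factors with a DNA-binding domain of zinc fingers and, in most, a pocket that takes up a small fat-soluble ligand such as a steroid, thyroid hormone, retinoic acid or vitamin D. Many bind DNA as pairs with a retinoid X receptor, and they recruit corepressors or coactivators depending on the ligand. In the erythroid lineage the glucocorticoid receptor is known for prolonging the division of progenitors, and the orphan receptors TR2 and TR4 for binding the embryonic and fetal globin genes.

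Many of these receptors recognise a 6-base core on DNA, AGGTCA, alone or repeated. Windows of the 250 bases before each annotated start were taken from RefSeq (build GRCm38.p6), in which 35 of the 37 genes matched, with 55 windows, and Nr3c1 and Thra did not. The core, read on both strands, was in 10 of the 55 windows and in 14.0% of all 32851 windows of that length. It was in 3 of the 13 windows of the genes that fell in S3, and those 3 windows are printed below because they hold it. All are written 5′ to 3′ on the strand of the gene, and capitals mark AGGTCA or its reverse complement TGACCT and, in Nr6a1, the GATA-type sequence AGATAA.
Nr1d2, chr14:18239107-18239356, minus strand: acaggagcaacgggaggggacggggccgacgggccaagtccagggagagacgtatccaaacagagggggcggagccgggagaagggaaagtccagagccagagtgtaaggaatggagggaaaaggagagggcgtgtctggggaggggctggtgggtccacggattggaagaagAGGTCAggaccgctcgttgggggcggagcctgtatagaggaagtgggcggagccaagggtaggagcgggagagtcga
Nr6a1, chr2:38784516-38784765, minus strand: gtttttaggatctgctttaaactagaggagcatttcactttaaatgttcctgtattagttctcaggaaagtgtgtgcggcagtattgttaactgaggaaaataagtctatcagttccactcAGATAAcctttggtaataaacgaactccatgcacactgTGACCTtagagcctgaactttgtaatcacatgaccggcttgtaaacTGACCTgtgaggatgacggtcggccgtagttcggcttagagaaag
Rxra, second annotated start, chr2:27709042-27709291, plus strand: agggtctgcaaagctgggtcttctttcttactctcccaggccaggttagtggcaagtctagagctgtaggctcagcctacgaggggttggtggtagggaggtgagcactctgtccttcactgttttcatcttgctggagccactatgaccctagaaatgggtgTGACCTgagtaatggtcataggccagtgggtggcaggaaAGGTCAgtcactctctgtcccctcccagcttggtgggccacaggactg
Nr1d2 held 1 such core, this Nr6a1 window held 2 and this Rxra window held 2. Nr6a1 and Rxra each had another annotated start, and the sequences marked in capitals were absent from the windows of those other starts. AGATAA was in 4 of the 55 windows and 9.99% of all windows, the E-box CACGTG in 4 and 6.02%, and the CACCC-type sequence CCACACCC in 1 and 3.2%. A match is a description of the letters and not a binding site. The ratio of observed to expected CpG had a median of 0.589 over the members' windows and 0.373 over all windows.

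The deposited values are log2 signals, taken as base 2 from their size, and every difference below is S3 minus S1 on that scale. A probe set was said to read above background on an array where it exceeded the 95th percentile of the 27 bacterial control probe sets there, which lay between 1.00 and 1.74. By that measure 16 of the 36 measured receptors read above background on all 6 arrays, 15 on some and 5 (Esr1, Esr2, Esrrb, Nr2f1 and Rorb) on none. Differences were tested with limma over all 11959 genes, with Benjamini-Hochberg adjustment and a threshold of 0.05, and "fell" or "rose" is used of genes past it.

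In S3, 9 of the 24 tested receptors fell and 0 rose: the glucocorticoid receptor Nr3c1, Rara, Rxra, the clock receptor Nr1d2, Esrra, Vdr, Nr2c1, Nr2f6 and Nr6a1. Their smallest fall was 2.36-fold, in Nr3c1, and the other 15 tested receptors did not pass. These 9 have an unadjusted limma p under 0.05 by definition, and no other tested receptor did. The share of all genes at that unadjusted cut is not given here. At the adjusted threshold, 12.8% of all 11959 genes fell and 2.53% rose, and the receptors' share was 37.5%. Rara and Vdr entered the test through their S1 signal alone and so had to differ, and no weight is put on the members' shares for that reason. A bulk sample cannot tell apart fewer cells of a type and less RNA per cell.

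**Figure D1:**
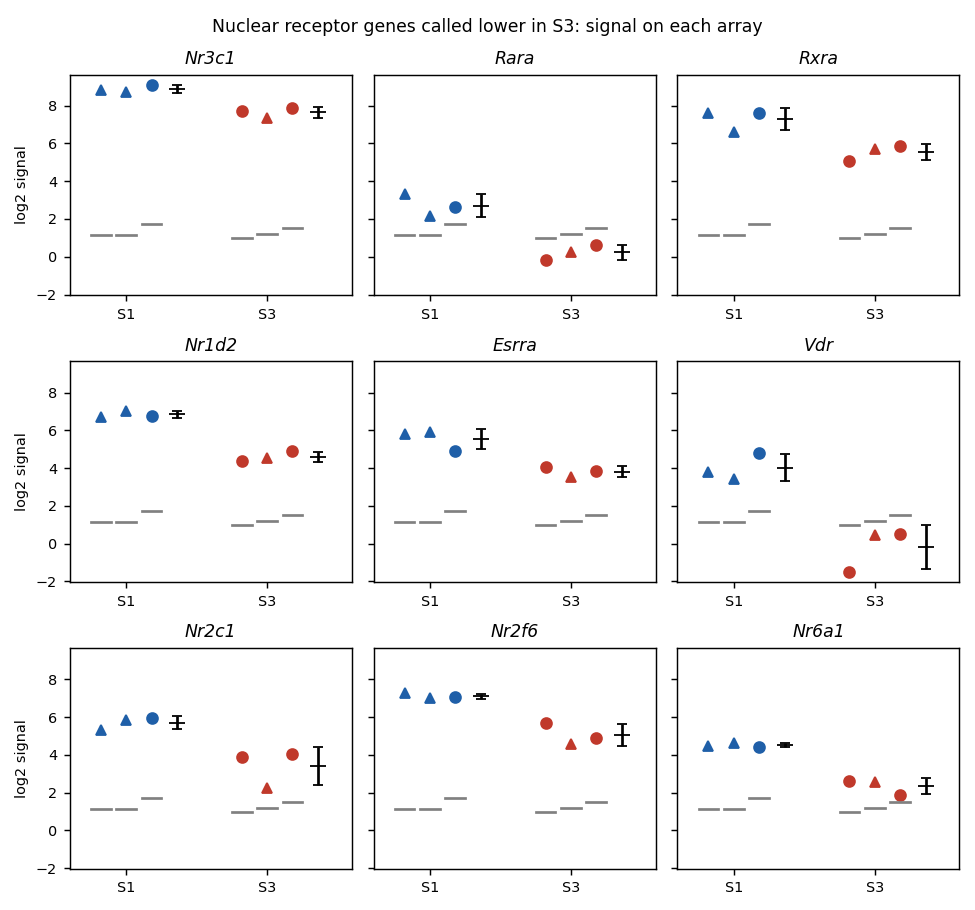
Log2 signal of the 9 receptor genes that fell, 1 panel a gene, on the 3 S1 arrays (blue) and the 3 S3 arrays (red), with circles for long-RNA and triangles for short-RNA arrays. Grey dashes mark each array's background and black bars the mean ± SD (n = 3). In every panel the S3 points lie below the S1 points, and for Rara and Vdr all 3 S3 points lie below the background.

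Each of the 9 had all its S3 arrays below all its S1 arrays. Such a separation was seen in 9 of the 24 tested receptors, or 37.5%, beside 29.5% of all genes, and the opposite order in 0 receptors beside 5.81% of all genes. The median change was -0.58 over the 24 tested receptors and -0.33 over all genes tested. The filter bears on this median and on the separation count in the same way, so neither measures the whole family. With no filter, all 36 measured receptors were tested, and 7 fell and 0 rose, beside 7.15% and 1.5% of all 18193 genes.

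The count of 9 depended on single arrays. It was 2 without S1 replicate 1, 3 without S1 replicate 2, 6 without S1 replicate 3, 4 without S3 replicate 1, 7 without S3 replicate 2 and 3 without S3 replicate 3. The share of all genes that fell dropped too, from 12.8% to 4.52%, 5.08%, 7.5%, 6.88%, 10.6% and 5.64% in the same order. No receptor rose under any of these 6 fits, beside 0.995% to 3.09% of all genes. The change of all 9 kept its sign, which their full separation of S3 below S1 fixes in advance.

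Scaling moved all genes together. The median change of all genes, -0.33 as deposited, was -0.10 after centring each array on the median of its probe sets, 0.13 after centring on the tested genes, -0.07 after quantile normalization and -0.06 with a common trimmed mean. Genes that rose made up 16.5% of all calls as deposited and 33.0%, 50.6%, 38.2% and 35.1% under those settings in turn. The receptors that fell then numbered 7, 4, 7 and 8, beside 8.13%, 5.79%, 9.44% and 9.51% of all genes. Vdr, Nr1d2, Nr2c1 and Nr2f6 passed in all 4.

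**Figure D2:**
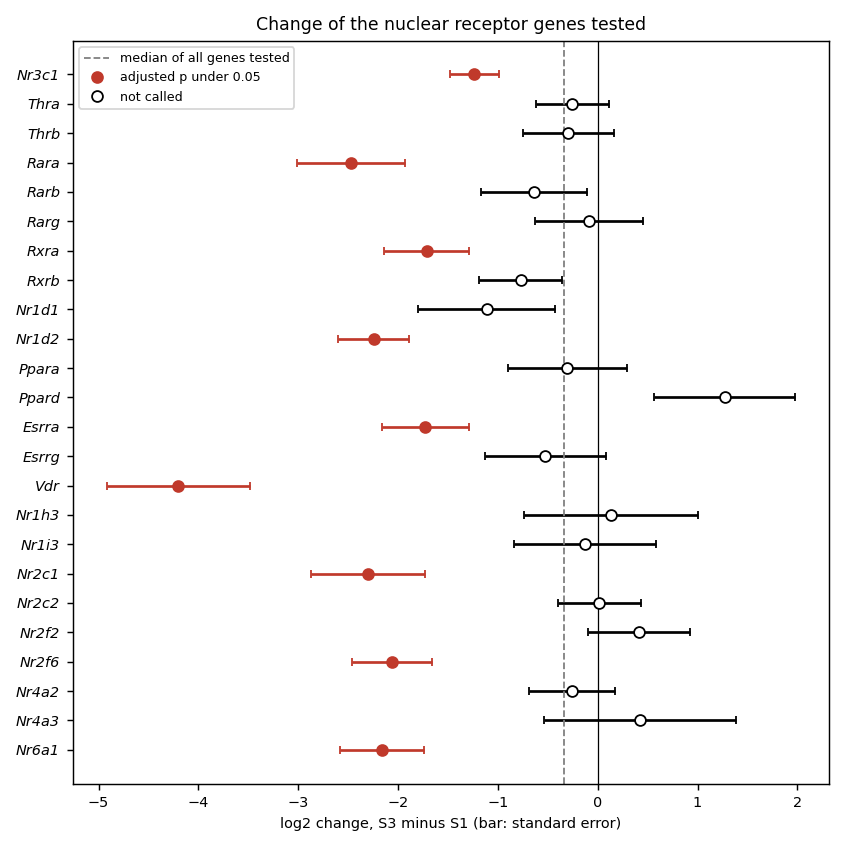
Log2 change, S3 minus S1, of the 24 receptor genes tested (points) with the standard error of the fit (bars). The 9 filled red points passed the test, all lie below 0 and below the dashed line at the median of all genes, -0.33, and Ppard, at 1.27, lies farthest to the right.

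The arrays also differed in how much of the 5′ end of transcripts they carried. The actin 5′ probe set minus the 3′ one was -2.08, -2.59 and -2.20 log2 units on S1 replicates 1 and 2 and S3 replicate 2, called short here, and -0.56 to -0.45 on the other 3, called long. With this class as a block, 11 of the 24 receptors fell and 0 rose, beside 41.2% and 5.81% of all genes, a receptor share of 45.8%. That comparison depended on the scaling. With median centring added to the block 9 receptors fell (37.5%), beside 16.8% of all genes with 8.56% rising, and with centring on the tested genes 7 fell (29.2%) and 1 rose, beside 13.8% and 23.6%. The 2 that the block alone added were Rxrb, at -1.07 ± 0.19 (SE, adjusted p = 0.00116), and Nr1d1, at -1.66 ± 0.40 (SE, adjusted p = 0.00603). Both missed the threshold when either centring was joined to the block, Rxrb at 0.147 and 0.249 and Nr1d1 at 0.0873 and 0.110. All 9 genes that fell were lower in S3 within the long arrays and within the short arrays. Their full separation of S3 below S1 fixes that in advance, so it is no check on the class.

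Among the tested receptors, 22 of 24 were lower in S3 within the long arrays, with a median of -1.05, where 79.6% of all genes were lower with a median of -0.60. Within the short arrays 14 of 24 were lower, with a median of -0.64, beside 72.2% of all genes and a median of -0.49. Each class holds 3 arrays with a single array of one subset, so these differences carry no test.

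**Figure D3:**
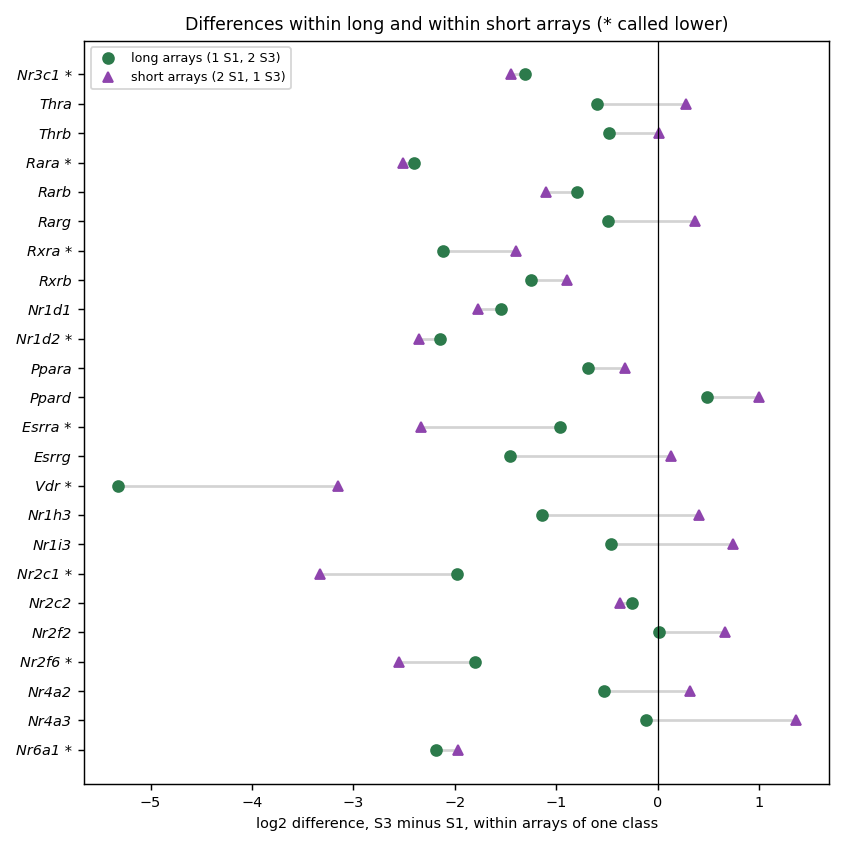
Log2 difference, S3 minus S1, of the 24 tested receptors within the long arrays (green circles, 1 S1 and 2 S3 arrays) and within the short arrays (purple triangles, 2 S1 arrays and 1 S3 array). The 9 starred genes that fell lie left of 0 in both classes, which follows from the full separation of their arrays. Of the other 15, 8 lie left of 0 in the long and right of 0 in the short arrays, Thra and Nr1i3 among them.

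The corticosteroid receptors of the list were Nr3c1, the glucocorticoid receptor, and Nr3c2, the mineralocorticoid receptor. Nr3c1 read 8.81, 8.73 and 9.12 in S1 and 7.72, 7.33 and 7.90 in S3. The lowest S1 array was thus above the highest S3 array, and the spread within each subset was small, at SDs of 0.20 and 0.30 (n = 3). Nr3c1 fell by 1.24 ± 0.25 (SE, adjusted p = 0.0171). The call was lost without S1 replicate 1 (adjusted p = 0.0678), S1 replicate 2 (0.0612) or S3 replicate 1 (0.0532). It was also lost with median centring over all probe sets, at -1.01 (0.0557), or over the tested genes, at -0.77 (0.123), and over 20 other fits the adjusted p ran from 4.93e-05, with the class block, to 0.292, with the mean of its probe sets. Its other 5 tested probe sets were all lower in S3, with changes from -1.58 to -0.07 and none called in a fit over all probe sets. Nr3c2 read 0.24, -1.23 and 1.04 in S1 and 1.06, 0.45 and 1.91 in S3, above background on 2 S3 arrays, and was too dim to test.

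The thyroid hormone receptors showed no called change. Thra read 7.02, 6.45 and 6.88 in S1 and 6.39, 7.01 and 6.19 in S3. The subsets overlapped, and its change of -0.25 ± 0.37 (SE, adjusted p = 0.723) was within the spread of the arrays. Thrb, at 1.83, 1.77 and 1.86 in S1 and 1.24, 1.81 and 1.53 in S3, lay just above background on all 6 arrays, with a change of -0.30 ± 0.46 (SE, adjusted p = 0.745).

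Of the retinoic acid receptors, which bind all-trans retinoic acid, Rara alone passed the test, a contrast between genes that was itself not tested. Rara read 3.33, 2.15 and 2.64 in S1, above background on each array, and -0.15, 0.23 and 0.64 in S3, above background on none. It fell at least 2.76-fold, a bound that sets each S3 array at its background, and the fitted change was -2.47 ± 0.54 (SE, adjusted p = 0.0233). Leaving out any array except S3 replicate 2 ended the call: the adjusted p was 0.0980, 0.0514 and 0.0618 without S1 replicates 1, 2 and 3, and 0.0812 and 0.0559 without S3 replicates 1 and 3. Centring on the tested genes ended it too, without the class block (0.0814) and with it (0.0744), and the range over 19 other fits was 0.0118 to 0.0980.

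Rarb read 3.37, 2.85 and 3.91 in S1 and 2.97, 2.01 and 3.26 in S3, which overlap, with a change of -0.63 ± 0.53 (SE, adjusted p = 0.512). Rarg read 1.65, 0.91 and 1.63 in S1 and 0.67, 1.64 and 1.62 in S3, and was above background on 3 arrays in all. Its change was -0.08 ± 0.54 (SE, adjusted p = 0.944).

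The retinoid X receptors are the shared partners of many other receptors. Rxra read 7.62, 6.61 and 7.60 in S1 and 5.09, 5.72 and 5.88 in S3. All 3 S3 arrays were below the lowest S1 array, and Rxra fell 3.28-fold, by 1.71 ± 0.43 (SE, adjusted p = 0.0358). The call held without S1 replicate 2 only: the adjusted p was 0.129 and 0.0874 without S1 replicates 1 and 3, and 0.118, 0.0504 and 0.0853 without S3 replicates 1, 2 and 3. It was also lost with quantile normalization (0.0764) and with centring on the tested genes, at -1.25 (0.108). A second tested probe set of Rxra changed by 0.19 ± 0.66 (SE), and the mean of its probe sets gave -0.24 (adjusted p = 0.876), the highest of 20 other fits, whose lowest was 0.00182.

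Rxrb read 7.46, 7.14 and 8.38 in S1 and 7.12, 6.40 and 7.15 in S3. The highest S3 array lay level with the lowest S1 array, and the change of -0.77 ± 0.42 (SE, adjusted p = 0.278) did not pass without the class block. Rxrg, at -0.86, 1.62 and -2.003 in S1 and 0.64, 0.67 and -0.95 in S3, exceeded background on a single S1 array and was not tested.

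Nr1d2 and Nr1d1 encode REV-ERB beta and alpha, heme-binding repressors that act in the circadian clock. Nr1d2 read 6.70, 7.04 and 6.78 in S1 and 4.38, 4.52 and 4.90 in S3. The subsets were separated by more than the whole spread within either, and Nr1d2 fell 4.73-fold, by 2.24 ± 0.35 (SE, adjusted p = 0.00792). Its differences within the long and short arrays were -2.15 and -2.35. Of 20 other fits, the mean of its probe sets alone missed the threshold (adjusted p = 0.236), its second probe set being above background on no array, and the smallest was 4.95e-05.

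Nr1d1 read 3.37, 3.47 and 4.94 in S1 and 3.28, 1.65 and 3.51 in S3. The highest value was on a long S1 array and the lowest on the short S3 array, the subsets overlapped, and the change was -1.11 ± 0.69 (SE, adjusted p = 0.347). Within classes it was -1.54 in the long and -1.77 in the short arrays. Rora, an activator that competes with the REV-ERB proteins at shared sites, read 0.33, 2.60 and 1.91 in S1 and 0.34, 1.05 and 0.21 in S3, above background on 2 S1 arrays. Rora and Rorb were not tested.

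Genes of the circadian clock around these receptors were listed too. Of the 14 listed symbols, where Arntl and Bmal1 name the same gene, 10 were tested. Of these 3 fell and 0 rose, beside 12.8% and 2.53% of all genes, with a median of -1.52 beside -0.33. Tef and Dbp, PAR-type transcription factors of the clock output, fell by 2.53 ± 0.36 (SE, adjusted p = 0.00594) and 2.38 ± 0.44 (SE, adjusted p = 0.0128), and Per3, a period protein gene, by 1.78 ± 0.39 (SE, adjusted p = 0.0233). The count dropped to 1 without S1 replicate 1. Dbp missed the threshold without S1 replicate 1 (adjusted p = 0.0591), and Per3 without any array except S3 replicate 2 (0.0618 to 0.0817). The mean of a gene's probe sets left 1 call, with Tef at 0.172 and Per3 at 0.801.

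The peroxisome proliferator-activated receptors sense fatty acids. Ppard read 2.88, 1.91 and 4.24 in S1 and 4.72, 3.39 and 4.74 in S3. It was the highest of the 24 changes, at 1.27 ± 0.70 (SE), but the subsets overlapped and it did not pass (adjusted p = 0.291). It passed only when arrays were centred on the median of the tested genes, at 1.74 (adjusted p = 0.0491) and, with the class block as well, 1.51 (adjusted p = 0.0151). Ppara read 1.95, 0.99 and 2.26 in S1 and 2.19, 1.15 and 0.95 in S3, with a change of -0.30 ± 0.59 (SE, adjusted p = 0.803). Pparg was above background on 1 array of each subset, read 1.85 and 1.43 there, and was not tested.

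Of the estrogen receptors and the ligand-independent estrogen-related receptors, Esrra alone fell. Esrra, a regulator of mitochondrial genes, read 5.79, 5.91 and 4.92 in S1 and 4.08, 3.51 and 3.85 in S3. The subsets did not overlap, and it fell 3.32-fold, by 1.73 ± 0.44 (SE, adjusted p = 0.0372). This was the call lost most often, in 12 of 20 other fits, with an adjusted p from 0.00410 to 0.175. It was 0.120 and 0.117 without S1 replicates 1 and 2, 0.0881, 0.0726 and 0.117 without S3 replicates 1, 2 and 3, 0.0950, 0.116 and 0.0765 under median centring, quantile normalization and a common trimmed mean, and 0.0664 with no filter.

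Within the long arrays the difference of Esrra was -0.96 and within the short arrays -2.34. Esrrg read 1.12, 2.36 and 2.94 in S1 and 1.19, 1.86 and 1.78 in S3, with a change of -0.53 ± 0.61 (SE, adjusted p = 0.648). Esr1, Esr2 and Esrrb were above background on no array and were not tested.

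Vdr, the vitamin D receptor, showed the largest fitted change of the 24. It read 3.80, 3.44 and 4.82 in S1, above background on all 3 arrays, and -1.496, 0.47 and 0.49 in S3, above background on none. It fell at least 6.84-fold with the S3 arrays set at their background, and the fitted change was -4.20 ± 0.71 (SE, adjusted p = 0.0100). Among the 9 it was the only one called in every other fit that could test it, 18 in all, with an adjusted p from 4.27e-06 to 0.0482, the last without S1 replicate 1. A second Vdr probe set, at a difference of -0.23, was above background on 1 array and was not tested.

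Nr1h4, the bile acid receptor, had a similar order at a lower signal: 1.29, 2.05 and 2.13 in S1, above background on each array, and -1.36, 0.86 and -1.08 in S3, above background on none. With the S3 arrays set at their background its array means differ by at least 1.49-fold. Nr1h4 was too dim for the test, so this difference was not tested. With no filter the smallest adjusted p of the 12 receptors left out was 0.111. Nr1h3, an oxysterol receptor, read 0.42, 1.05 and 3.01 in S1 and 2.93, 1.14 and 0.81 in S3, with a change of 0.13 ± 0.87 (SE, adjusted p = 0.945). Nr1i3, a xenobiotic receptor of hepatocytes, read 0.57, 2.20 and 1.18 in S1 and 0.18, 2.13 and 1.26 in S3, with a change of -0.13 ± 0.71 (SE, adjusted p = 0.936). Both were above background on 2 of the 6 arrays.

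The orphan receptors Nr2c1 (TR2) and Nr2c2 (TR4) form a complex known for repressing embryonic and fetal globin genes. Nr2c1 read 5.30, 5.87 and 5.97 in S1 and 3.91, 2.26 and 4.06 in S3. All S3 arrays were below all S1 arrays, with S3 replicate 2 lowest, and Nr2c1 fell 4.94-fold, by 2.30 ± 0.57 (SE, adjusted p = 0.0358). The call was lost without any array except S3 replicate 2: the adjusted p was 0.0841, 0.111 and 0.0799 without S1 replicates 1, 2 and 3, and 0.0703 and 0.0669 without S3 replicates 1 and 3. It was also lost with no filter (0.0533), and over 20 other fits it ran from 2.42e-05 to 0.121. Its other 3 tested probe sets were lower in S3, with changes from -3.18 to -1.39 and none called in the fit over all probe sets.

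Nr2c2 read 7.99, 7.62 and 8.75 in S1 and 8.35, 7.43 and 8.63 in S3. The subsets overlapped almost fully, and the change was 0.02 ± 0.41 (SE, adjusted p = 0.985), or -0.32 ± 0.17 (SE, adjusted p = 0.154) with the class block. Whether the changes of Nr2c1 and Nr2c2 differ was not tested.

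Nr2f6 and Nr2f2 belong to the COUP-TF group of orphan receptors, which mostly repress. Nr2f6 read 7.26, 6.99 and 7.09 in S1 and 5.68, 4.57 and 4.91 in S3. The 3 S1 arrays lay close together, at an SD of 0.14 (n = 3), well above the S3 arrays, and Nr2f6 fell 4.17-fold, by 2.06 ± 0.40 (SE, adjusted p = 0.0163). The call was lost without S1 replicate 1 (adjusted p = 0.0723), S1 replicate 2 (0.0612) or S3 replicate 3 (0.0685), and held in the other 17 of 20 fits, down to 5.97e-05. Nr2f2 read 2.21, 1.80 and 2.57 in S1 and 1.99, 2.67 and 3.18 in S3, with a change of 0.42 ± 0.51 (SE, adjusted p = 0.670). Nr2f1 was above background on no array.

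The NR4A receptors are immediate early genes without a known natural ligand. Nr4a2 read 3.80, 4.11 and 3.93 in S1 and 3.46, 4.27 and 3.35 in S3, which overlap, with a change of -0.26 ± 0.43 (SE, adjusted p = 0.771). Nr4a3 read -0.24, 1.97 and 1.01 in S1 and -0.56, 2.22 and 2.34 in S3, above background on 3 arrays, with a change of 0.42 ± 0.96 (SE, adjusted p = 0.834). Nr4a1 read -1.57, -2.32 and 1.51 in S1 and 1.10, -1.42 and 0.76 in S3, above background on 1 array, and was not tested.

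Nr6a1, the germ cell nuclear factor, an orphan repressor known for silencing pluripotency genes, read 4.49, 4.64 and 4.43 in S1 and 2.63, 2.59 and 1.85 in S3. The S1 arrays agreed to an SD of 0.11 (n = 3) and stood above every S3 array, and Nr6a1 fell 4.47-fold, by 2.16 ± 0.43 (SE, adjusted p = 0.0168). The call was lost without S1 replicate 1 (adjusted p = 0.0637), S1 replicate 2 (0.0640) or S3 replicate 3 (0.0714) and with centring on the tested genes (0.0836), and over 20 other fits the adjusted p ran from 0.00219 to 0.457. The last came from the mean over its 5 probe sets, of which the second tested one changed by -1.48 and was not called. Nr5a2, a receptor of liver and early embryo, read 0.55, 1.12 and -0.15 in S1 and 1.92, -0.80 and 2.31 in S3, above background on 2 S3 arrays, and was not tested.

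Across the 9 that fell, 5 had other probe sets in the test, 11 in all, and 10 of the 11 were lower in S3. None of the 11 passed in a fit over all probe sets above the filter, whose adjustment is over more tests: there the probe sets that stood for Esrra (adjusted p = 0.0675), Rxra (0.0568) and Nr2c1 (0.0571) missed as well. The 9 were lower in S3 under each other scaling tried, while 6 of the 15 that did not pass (Thra, Thrb, Rarg, Ppara, Nr1i3 and Nr4a2) turned sign under at least 1 of them. This contrast follows from size and is no separate support. The 9 changed by -1.24 or beyond and the 6 by -0.30 to -0.08. The scalings moved the median of all genes from -0.33 to between -0.10 and 0.13.

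A further 11 nuclear receptors outside the named list gave no calls. Only Hnf4a and Nr5a1 were bright enough to test, at -0.82 ± 0.57 (SE, adjusted p = 0.410) and -1.24 ± 0.60 (SE, adjusted p = 0.221). Nr5a1 was above background on no S3 array, so its S3 level has a bound alone. With the S3 arrays set at their background the array means differ by at least 1.72-fold, a difference that did not pass the test.

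Receptors act through the cofactors they recruit. Of 17 coactivator genes 16 were tested, 3 fell and 1 rose, beside 12.8% and 2.53% of all genes, with a median of -0.12 beside -0.33. The same shares of all genes apply to the lists that follow. Ppargc1b, encoding PGC-1 beta, a coactivator of the estrogen-related receptors, fell by 2.76 ± 0.62 (SE, adjusted p = 0.0253), and Ncoa5 by 0.91 ± 0.22 (SE, adjusted p = 0.0344). Med1, a Mediator subunit that contacts receptors, fell by 0.49 ± 0.13 (SE, adjusted p = 0.0468), but it missed the threshold in 16 of 20 other fits and its sign turned when the class block was joined to centring on the tested genes. Ncoa4, better known as the ferritin receptor of autophagy, rose by 0.73 ± 0.18 (SE, adjusted p = 0.0324).

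These calls too rested on single arrays: both counts were 0 without S1 replicate 1, S1 replicate 2, S3 replicate 1 or S3 replicate 3, while 0 fell and 3 rose without S1 replicate 3, and 2 fell and 3 rose without S3 replicate 2. Without the first 4 of those arrays the adjusted p of Ncoa4 was 0.0997 to 0.118. Ppargc1b missed it without any array except S3 replicate 2 (0.0565 to 0.0748), and Ncoa5 (0.0536 to 0.136) and Med1 (0.0833 to 0.151) without any of the 6. Ncoa5 missed it in 13 of 20 other fits in all, and Ncoa4 in 7, up to 0.128 with no intensity trend.

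Of 12 corepressor genes 10 were tested, 2 fell and 0 rose, with a median of -0.15. Tbl1xr1, a subunit of the NCoR and SMRT complexes, fell by 1.94 ± 0.23 (SE, adjusted p = 0.00359). Its paralog Tbl1x fell by 0.96 ± 0.25 (SE, adjusted p = 0.0404), a call lost without any single array (0.0606 to 0.137), which left a count of 1, and missed in 15 of 20 other fits in all. Tbl1xr1 missed with the mean of its probe sets (0.0785) and with centring on the tested genes (0.0627). The medians of the coactivators and the corepressors turned positive under both median centrings, quantile normalization and a common trimmed mean.

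The chaperones that hold steroid receptors ready for ligand gave 0 calls among 9 tested of 12 listed, with a median of -0.22. The smallest p values were those of Fkbp5, an immunophilin and glucocorticoid target, at -1.36 ± 0.45 (SE, adjusted p = 0.0861), and Hsp90aa1, at -0.22 ± 0.08 (SE, adjusted p = 0.128). Of 23 genes that make, carry or break down ligands, 9 were tested, 1 fell and 0 rose, with a median of 0.13. That gene was Rdh10, which makes retinal from retinol, at -1.22 ± 0.33 (SE, adjusted p = 0.0444), a call lost without any single array (0.0524 to 0.148) and in 15 of 20 other fits in all.

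**Figure D4:**
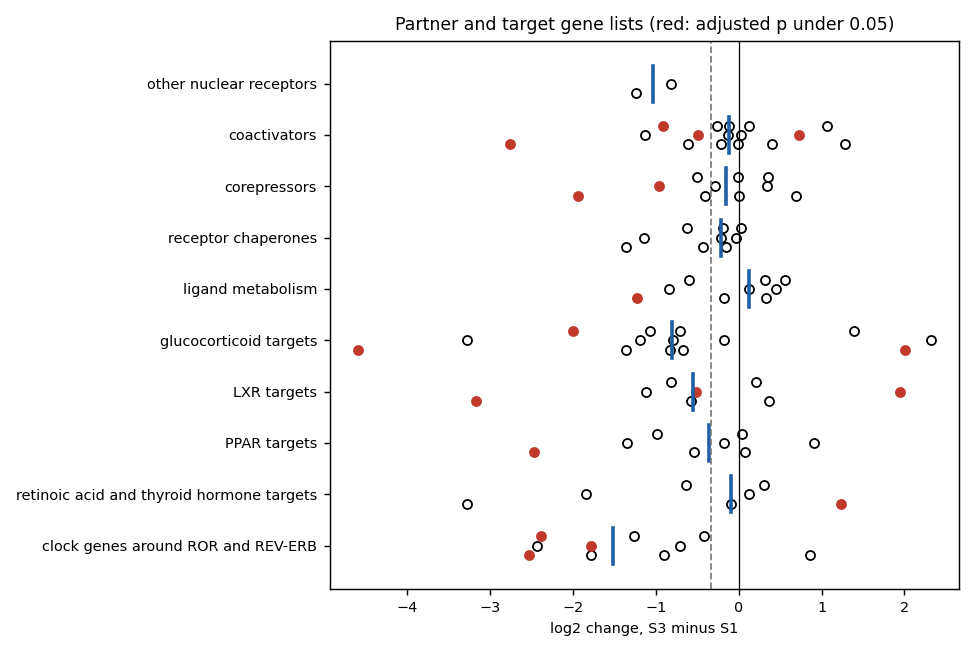
Log2 change, S3 minus S1, of the tested genes of 10 lists of receptors, partners and targets (points, red where the adjusted p is under 0.05), with each list's median (blue bars) and the median of all genes, -0.33 (dashed line). The clock list has the lowest median, -1.52, and the ligand metabolism list the highest, 0.13, and a few genes stand in 2 lists.

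Known target genes of the receptors were read as lists as well, with calls in both directions. Of 15 glucocorticoid target genes 14 were tested, 2 fell and 1 rose, with a median of -0.81 beside -0.33 for all genes. Zbtb16, a zinc finger repressor, fell at least 17.1-fold, at a fitted -4.59 ± 0.49 (SE, adjusted p = 0.00308), and was above background on no S3 array. Nfkbia, the NF-kappa-B inhibitor, fell by 2.01 ± 0.38 (SE, adjusted p = 0.0143), while Dusp1, a MAP kinase phosphatase, rose by 2.01 ± 0.22 (SE, adjusted p = 0.00308). The call of Nfkbia was lost without S1 replicate 1 (0.0678), S1 replicate 2 (0.0688) or S3 replicate 3 (0.0590), when the count of falls was 1, and also under quantile normalization (0.0818) and centring on the tested genes (0.109). Those of Zbtb16 and Dusp1 held in all 19 and 20 other fits.

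Of 8 oxysterol receptor target genes, all tested, 2 fell and 1 rose, with a median of -0.55. Apoe, a lipoprotein gene, fell by 3.17 ± 0.56 (SE, adjusted p = 0.0114), and Scd2, a fatty acid desaturase gene, by 0.51 ± 0.10 (SE, adjusted p = 0.0161). Mylip, a ubiquitin ligase gene acting on the LDL receptor, rose by 1.94 ± 0.37 (SE, adjusted p = 0.0145). Apoe missed the threshold without S1 replicate 1 (0.0533) or 2 (0.0515), Mylip without S1 replicate 1 (0.0590) or S3 replicate 3 (0.0647), and Scd2 without S1 replicate 2 (0.0714), S3 replicate 1 (0.0597) or S3 replicate 3 (0.0648). Scd2 missed it in 10 of 20 other fits in all, and its sign turned when the class block was joined to centring on the tested genes.

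Of 13 targets of the peroxisome proliferator-activated receptors 8 were tested, 1 fell and 0 rose, with a median of -0.35. Angptl4, a lipase inhibitor gene, fell by 2.48 ± 0.44 (SE, adjusted p = 0.0114), with the call held without each array and lost with the mean of its probe sets (0.690). Of 11 retinoic acid and thyroid hormone target genes 7 were tested, 0 fell and 1 rose, with a median of -0.09. Tgm2, a transglutaminase gene, rose by 1.23 ± 0.28 (SE, adjusted p = 0.0264), a call lost without any array except S1 replicate 3 (0.0506 to 0.1004).

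The class block changed the counts of these lists, and so did the scaling joined to it. All genes gave 41.2% falls and 5.81% rises under the block alone, 16.8% and 8.56% with median centring added, and 13.8% and 23.6% with centring on the tested genes, and the counts below are in that order. Of the 10 clock genes 7, 6 and 6 fell and 0, 0 and 1 rose. Of the 14 glucocorticoid target genes 7, 5 and 4 fell and 2, 3 and 3 rose.

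For the 16 coactivator genes the falls were 6, 2 and 2 and the rises 3, 3 and 6, so the balance turned with the scaling. For the 10 corepressor genes the falls were 6, 1 and 1 and the rises 1, 1 and 4. Among the 9 chaperone genes 7, 2 and 2 fell and 0, 0 and 3 rose. The 8 oxysterol receptor targets gave 5, 1 and 1 falls and 1, 1 and 2 rises, and the 8 targets of the peroxisome proliferator-activated receptors 5, 3 and 2 falls and 0, 0 and 2 rises. Retinoic acid and thyroid hormone targets gave 2 falls and 1 rise each time, and ligand genes 1, 0 and 0 falls and 1 rise each time.

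Markers of the sorted cells and of other liver cells were read on the same arrays. All 7 measured erythroid markers were above background on all arrays, and 4 of them, Alas2, Hbb-bh1, Slc4a1 and Ank1, rose in S3. Of 8 hepatocyte markers 6 were above background on all arrays, with summed linear signals of 287 to 349 in S1 and 252 to 1010 in S3, and 0 were called. The sum of 6 megakaryocyte markers was 80.1 to 177 in S1 and 355 to 379 in S3, and Vwf rose. Among granulocyte and mast cell markers the sum was 23.8 to 105 in S1 and 12.2 to 149 in S3, Prtn3 fell, and Elane and Ctsg were above background on no array.

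Macrophage markers summed to 31.3 to 119 in S1 and 39.1 to 97.4 in S3, with Adgre1 and C1qc above background on no array. Endothelial markers summed to 14.8 to 20.6 in S1 and 10.7 to 19.9 in S3, with Tek and Emcn above background on none, and the mesenchymal list to 30.3 to 49.5 and 36.5 to 50.6, with Des above background on none. The part of these cells in the receptors' values was not tested.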

How the data were processed

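RNA of 6 sorted samples (3 S1, 3 S3) was amplified and hybridized to Affymetrix Mouse Genome 430 2.0 arrays. The deposited values are log2 signals. Per the series' design text and the submitters' processing notes, the authors made MAS5 signals and normalized them to 18S RNA, Gapdh and beta-actin; no source used here gives MAS5's version or scaling or the log base, and base 2 was taken from the values. The number of arrays limits the precision.

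Probe sets were named from the platform's gene table. The brightest single-symbol probe set stood for each gene, and genes above the 40th percentile of mean signal (1.13) were tested with limma 3.58.1 in R 4.3.3 (lmFit, eBayes with an intensity trend, 6 arrays, no block, Benjamini-Hochberg over 11959 genes, threshold 0.05). The fit was also run on simulated data with independent noise for each gene. That noise held no differences of scaling or length class between arrays, so the run does not bear on the calls. Arrays with actin 5′ minus 3′ under -1.5 were classed as short.

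The members, gene lists and array classes were chosen with earlier results of these data known. All members are named, and of each list up to 4 called genes of smallest p, or 2 where none was called. Alternatives covered scaling, filters, probe set choice, an added constant, variance models, replicate and class blocks and leaving out each array. Centring on the tested genes was chosen after seeing the data.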

Additional observations from a re-analysis of the deposited data

How the results depend on the processing

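The count of receptors that fell, 9, was 7 to 11 under quantile normalization, a common trimmed mean, no filter, a 60th percentile filter, median centring over all probe sets, an added constant, no or a robust intensity trend and the class block with or without either centring. It moved to 4 with median centring over the tested genes, an alternative chosen after seeing the data, and to 2 with the mean of each gene's probe sets. Of all genes, 7.15% to 41.2% fell under the settings that gave 7 to 11. The shares were 5.79% with centring on the tested genes and 7.29% with the mean of probe sets. Leaving out 1 array gave 2 to 7, beside 4.52% to 10.6% of all genes. The count of receptors that rose, 0, became 1 (Ppard) with median centring over the tested genes, alone or with the class block, and stayed 0 when 1 array was left out. No called receptor reversed its sign in any of these fits. With 1 array left out, the full separation of their arrays fixes that in advance.

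The replicate numbers were not shown to pair the arrays: the correlations of same-numbered deviations were -0.192, 0.364 and 0.432, and S1 replicate 1 correlated best with S3 replicate 2 (0.28). All positive correlations across subsets were between arrays of the same length class, so this check cannot tell whether the sort days pair them. With the number as a replicate block 9 receptors fell and 0 rose, and all genes gave 1897 falls and 412 rises. For dim receptors the signal over background limits what can be said, and Rara, Vdr and Nr1h4, and Nr5a1 outside the list, have only bounds in S3.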
